A study of Mus musculus with 4 samples.

Results

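Mitosis and cytokinesis genes are described here in mouse mammary tumours, from a list of 40 genes that act between entry into mitosis and the separation of the daughter cells. Members were taken as the probes whose name on the array was a listed symbol or its former symbol, which gave 24 genes with 29 probes out of 32662 genes or transcripts tested. The other 16 listed genes were on the array under names the list does not hold, 15 of them matched through the RefSeq accession of the probe and Cenpf through the synonym Lek1. These 16 were matched after the files were seen and are marked as matched in the paragraphs on their roles. Counts of the 24 members leave them out, while counts by role, promoter window, signal or all 40 listed genes include them. The tumours came from female FVB/N mice aged 26 weeks and were all early tumours of stage T1, under 1 cm, with mammary as the labelled tissue. The mice of interest carried both MMTV-cdc25a and MMTV-neu (Cdc25a;neu, 2 tumours), and their counterparts had MMTV-neu without the cdc25a transgene (neu, 2 tumours), so the comparison asks what added Cdc25a changes in a neu tumour. All 4 mice thus carried the neu transgene, no tumour without it was included, and both transgenes are named for the MMTV promoter, which is active in mammary epithelium. Each Cdc25a;neu tumour was hybridised with 1 neu tumour on a 2-colour Agilent array, and each of the 2 pairs was hybridised again with the dyes swapped, giving 4 arrays.

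In dividing cells, cyclin B with its kinase starts mitosis, polo and Aurora kinases build the spindle, the spindle checkpoint holds the cell until chromosomes are attached, and the anaphase-promoting complex then releases the sister chromatids. A bundle of microtubules between the separating chromosomes recruits the activator of RhoA that sets the cleavage furrow. Cdc25a is a phosphatase that activates cyclin-dependent kinases, and neu is the rat form of the growth factor receptor Erbb2. Many mitotic genes share promoter elements, the cell cycle genes homology region (CHR) and CCAAT boxes, and are switched on together in late G2. In tumour tissue their level also follows the share of cells that are dividing.

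All values are log2 ratios of Cdc25a;neu over neu unless a level is named. A level is the normalised log2 signal of a tumour averaged over both dyes. Levels are compared between tumours for the same probe and never between genes. The 2 arrays of a pair carry the same RNA extracts, so the pair was the replicate (n = 2), and SDs are between the pairs. For p-values, each gene's spread between these 2 pairs was moderated towards a value pooled over all genes tested. A p-value therefore does not rest on the gene's own 2 pairs alone. Signals well above background were found at 78.5% to 92.2% of spots in the green channel and at 82.7% to 87.9% in the red, and 9 to 87 spots an array carried an outlier flag. Array ratios over genes with a value on every array correlated at 0.65 within pair 1 and 0.76 within pair 2. Between the pairs they correlated at 0.21 to 0.37. The Cdc25a probe gave 0.09 in pair 1 and 0.01 in pair 2, and the Erbb2 probe gave 0.45 in pair 1 and 0.85 in pair 2. The sources used here do not say whether either probe reads its transgene. As these were whole tumours, fewer cells of a type and less RNA per cell cannot be told apart.

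The largest single ratios were found for a few genes of cytokinesis and mitotic entry, while some genes of both roles, such as Racgap1 and Ccnf, were near 0. Ect2, the RhoA activator of the cleavage furrow, was 1.63-fold that of neu tumours on its brighter probe, a log2 ratio of 0.71, but had a log2 ratio of 0.06 on its other probe. The mean of both Ect2 probes, 0.38, lies below the ratios of Kif20a, Ccnb2 and Cks1b. Kif20a, a kinesin of the central spindle, was 1.53-fold. Cyclin B2 (Ccnb2) and the cyclin-dependent kinase subunit Cks1b, a matched gene, were both at 1.47-fold. Of the 24 members, 0 passed the test across all genes, limma with Benjamini-Hochberg adjustment at 0.05, in which 0 of 32662 genes (0.0%) passed. The adjusted p of the 40 listed genes lay between 0.438 and 0.998. At an unadjusted p under 0.05, 9 of the 24 members were higher and 0 lower, where 3.91% of all genes were higher and 5.74% lower. The 16 matched genes added 5 that were higher and 0 that were lower at this level.

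The direction in the pairs was read against all genes in the same way. Of the 24 members, 13 were higher in Cdc25a;neu tumours in both pairs, where 31.9% of all genes were, and 0 were lower in both pairs, where 28.1% of all genes were. The remaining 11 members went opposite ways in the pairs. On all 4 arrays 11 members were higher, against 14.7% of all genes, and 0 were lower, against 12.4% of all genes. In 10 members both Cdc25a;neu tumours had higher levels than both neu tumours, which held for 8.66% of all genes. In 0 members both Cdc25a;neu tumours lay below both neu tumours, which held for 11.2% of all genes. Among the 16 matched genes 9 were higher in both pairs, 8 were higher on all 4 arrays, and 8 had both Cdc25a;neu tumours above both neu tumours. Cdc20 was the 1 listed gene that was lower in both pairs. The median ratio of the 24 members was 0.32 in pair 1 and 0.10 in pair 2, against 0.005 in each pair for all genes tested.

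**Figure D1:**
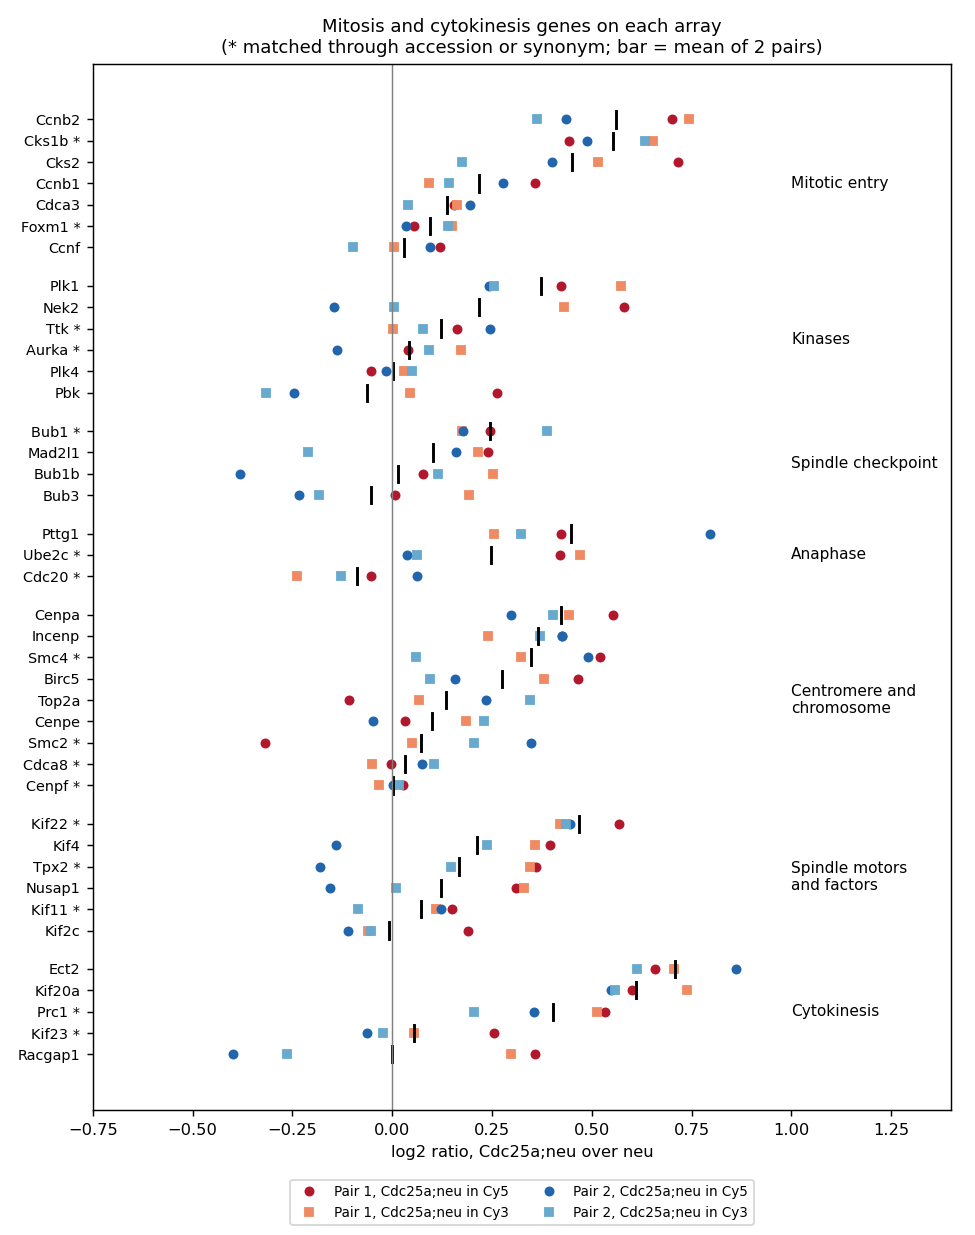
The log2 ratio of Cdc25a;neu over neu (x axis) is shown for each of the 40 listed genes (rows, by role) on each of the 4 arrays, with circles where Cdc25a;neu was in Cy5, squares where it was in Cy3, red and orange for pair 1, and dark and light blue for pair 2. Black bars are the mean of the 2 pairs, and an asterisk marks the 16 matched genes. Ect2 and Kif20a lie right of 0.5 on every array, and Racgap1 lies near 0.33 in pair 1 and near -0.33 in pair 2.

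Promoter sequence is shown because the listed genes share elements there whether or not their ratio was high. RefSeq tables of the mouse assembly GRCm38.p6 held promoter windows of 34 of the 40 genes, in 37 windows of 300 bases, from 250 before to 50 after an annotated start. The CHR was searched as TTTGAA or TTCGAA and the CCAAT box as CCAAT, each on both strands, and no word is contained in another. A CHR word was in 75.7% of the 37 windows and in 19.2% of 32851 windows of all genes. A CCAAT word was in 83.8% of the listed genes' windows and in 37.4% of all windows, and both words were in 73.0% against 7.52%. Of the 9 genes with a window that were higher on all 4 arrays with a mean ratio of at least 0.3, 7 held both words (77.8%), as did 17 of the other 25 listed genes with a window (68.0%). The E2F words TTTGGCGC, TTTCCCGC, TTTCGCGC and TTTGCCGC were in 0 of the 37 windows and in 2.26% of all windows. These matches describe letters and show no binding. The 150 bases before the start are given for Ect2, Ccnb2, Cks1b and Kif22, which had the largest ratios among genes with a window. Cdc20 is given as well, chosen after its values were seen, because it holds the same words and was lower in both pairs. Capitals mark CHR and CCAAT words on either strand, so that TTCAAA and ATTGG are the words read from the other strand.
Ect2, chr3:27153879-27154028, minus strand: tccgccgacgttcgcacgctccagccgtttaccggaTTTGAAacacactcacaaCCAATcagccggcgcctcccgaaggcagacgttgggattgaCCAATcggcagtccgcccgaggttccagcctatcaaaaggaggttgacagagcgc
Ccnb2, chr9:70421555-70421704, minus strand: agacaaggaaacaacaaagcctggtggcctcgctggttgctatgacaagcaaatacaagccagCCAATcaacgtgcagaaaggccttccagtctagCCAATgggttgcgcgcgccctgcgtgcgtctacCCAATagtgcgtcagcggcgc
Cks1b, chr3:89418292-89418441, minus strand: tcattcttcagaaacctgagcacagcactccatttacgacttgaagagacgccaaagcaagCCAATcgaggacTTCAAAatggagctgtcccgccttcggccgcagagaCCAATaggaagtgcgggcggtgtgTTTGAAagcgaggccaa
Kif22, chr7:127042421-127042570, minus strand: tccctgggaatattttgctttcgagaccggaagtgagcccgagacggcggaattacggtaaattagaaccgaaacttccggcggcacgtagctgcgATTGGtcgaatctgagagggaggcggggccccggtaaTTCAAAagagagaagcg
Cdc20, chr4:118437344-118437493, minus strand: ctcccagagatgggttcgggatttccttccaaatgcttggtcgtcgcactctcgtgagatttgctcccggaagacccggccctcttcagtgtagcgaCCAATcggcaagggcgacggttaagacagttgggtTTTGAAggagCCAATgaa

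In the printed Ect2 stretch a CHR word stands at position -114 and CCAAT words at -96 and -55, counted from the start to the word's leftmost base. The same window has a CHR word at 40 and a CCAAT word at 2 after the start, and a second annotated Ect2 start puts the CHR words at -138 and 16. Ccnb2 has CCAAT words at -87, -54 and -21, and its CHR words lie outside the printed stretch, at -167 and at 5 after the start. Cdc20 has a CHR word at -18 between CCAAT words at -53 and -8. Cks1b has CHR words at -77 and -17. Kif22 has CHR words at -17 and, outside the printed stretch, at -215. Cdc20 thus holds the same words as the other 4, with its CHR word near the place of 1 of the 2 CHR words in Cks1b and in Kif22.

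The roles hold few genes each, and their counts stand beside the 31.9% of all genes that were higher in both pairs. Among genes of mitotic entry, 6 of 7 were higher in both pairs. Ccnb2 levels were 10.88 and 10.64 in Cdc25a;neu tumours 1 and 2, against 10.16 and 10.24 in neu tumours 1 and 2. Its ratios were 0.70 and 0.74 on the arrays of pair 1 and 0.44 and 0.36 on those of pair 2. Both Cdc25a;neu tumours lay above both neu tumours, and the mean was 0.56 ± 0.23 (SD, n = 2 pairs; limma adjusted p = 0.486). Cks1b, a matched gene whose small protein binds the mitotic kinase and helps it find its substrates, was alike in both pairs. Its levels were 10.58 and 10.62 in Cdc25a;neu tumours, against 10.04 and 10.06 in neu tumours. The ratios were 0.44 and 0.65 on the arrays of pair 1 and 0.49 and 0.63 on those of pair 2, giving a mean of 0.55 ± 0.01 and no overlap between the genotypes (limma adjusted p = 0.438). Its paralogue Cks2 had levels of 11.11 and 11.26 in Cdc25a;neu tumours, against 10.49 and 10.97 in neu tumours, again without overlap. The Cks2 ratios were 0.72 and 0.52 in pair 1 and 0.40 and 0.17 in pair 2, and its second probe gave a mean of 0.38 beside 0.45.

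The other entry genes differed by less. Cyclin B1 (Ccnb1) gave 0.23 in pair 1 and 0.21 in pair 2, and both Cdc25a;neu tumours lay above both neu tumours. Its other 2 probes, matched through accessions, gave 0.06 and 0.11. The forkhead factor Foxm1, a matched gene that switches on many late cell cycle genes, gave 0.10 in pair 1 and 0.09 in pair 2. Cdca3, which takes part in the degradation of the mitosis inhibitor Wee1, gave 0.16 and 0.12 in the pairs. A brighter probe matched to Cdca3 through its accession gave 0.62 in pair 1 and 0.35 in pair 2, so the 2 probes had the same direction and differed in size. Ccnf, cyclin F, a substrate receptor of a ubiquitin ligase, had a mean of 0.03.

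Of the 6 kinases, Plk1 and the matched gene Ttk were higher in both pairs. Plk1, the polo kinase needed for centrosome maturation, spindle assembly and cytokinesis, had levels of 10.61 and 10.59 in Cdc25a;neu tumours, against 10.11 and 10.34 in neu tumours. Its ratios were 0.42 and 0.57 in pair 1 and 0.24 and 0.26 in pair 2, for a mean of 0.37 ± 0.18 (limma adjusted p = 0.496). The 2 genotypes did not overlap, and the ratio was larger in pair 1. Ttk, the kinase that starts checkpoint signalling at kinetochores, gave 0.08 in pair 1 and 0.16 in pair 2.

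Nek2 and Pbk went opposite ways in the pairs. Nek2, the kinase that separates centrosomes, had levels of 7.66 and 7.23 in Cdc25a;neu tumours, against 7.15 and 7.30 in neu tumours. Its ratios were 0.58 and 0.43 on the arrays of pair 1 and -0.15 and 0.01 on those of pair 2. Cdc25a;neu tumour 1 was the high sample, and the other 3 tumours lay close to each other. Pbk, a kinase active in mitotic cells, had levels of 9.43 and 9.05 in Cdc25a;neu tumours, against 9.28 and 9.33 in neu tumours. The Pbk ratios were 0.26 and 0.05 in pair 1 and -0.24 and -0.32 in pair 2, and Cdc25a;neu tumour 2 was the low sample. Aurka, the Aurora kinase of centrosomes and a matched gene, had a bright probe and a mean of 0.04 ± 0.09, at 0.11 in pair 1 and -0.02 in pair 2. Plk4, the kinase of centriole duplication, gave -0.01 and 0.02, with a probe that in each genotype's channel was above background on 3 of 4 arrays.

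The spindle checkpoint genes showed no common direction. Bub1, the kinetochore kinase and a matched gene, was higher in both pairs, at 0.21 in pair 1 and 0.28 in pair 2. The other 3 genes were positive in pair 1 and negative in pair 2. Mad2l1, whose product blocks Cdc20 until chromosomes are attached, gave 0.23 and -0.03. Bub1b, the pseudokinase partner in that block, gave 0.16 and -0.13. Bub3, the adaptor that carries both Bub proteins to kinetochores, had levels of 8.92 and 8.85 in Cdc25a;neu tumours, against 8.82 and 9.06 in neu tumours. Its ratios were 0.01 and 0.19 in pair 1 and -0.23 and -0.18 in pair 2, and a second probe had a mean of -0.02 beside -0.05. The Bub3 levels of the genotypes overlapped.

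Genes of the anaphase machinery split. Pttg1, the securin that holds back the cohesin-cutting protease, had levels of 10.94 and 11.02 in Cdc25a;neu tumours, against 10.60 and 10.46 in neu tumours. The ratios of Pttg1 were 0.42 and 0.25 in pair 1 and 0.80 and 0.32 in pair 2, for a mean of 0.45 ± 0.16 (limma adjusted p = 0.479). The genotypes did not overlap, and the gap between dye orientations in pair 2 was 0.47. Ube2c, a matched gene for the ubiquitin-conjugating enzyme of the anaphase-promoting complex, gave 0.44 in pair 1 and 0.05 in pair 2. Cdc20, a matched gene for the activator of the same complex, gave -0.14 in pair 1 and -0.03 in pair 2. Its levels were 10.79 and 11.00 in Cdc25a;neu tumours, against 10.94 and 11.03 in neu tumours, so the genotypes overlapped. Its ratios were -0.05 and -0.24 in pair 1 and 0.06 and -0.13 in pair 2, and its mean of -0.09 ± 0.08 was near the spread between the pairs (limma adjusted p = 0.670).

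**Figure D2:**
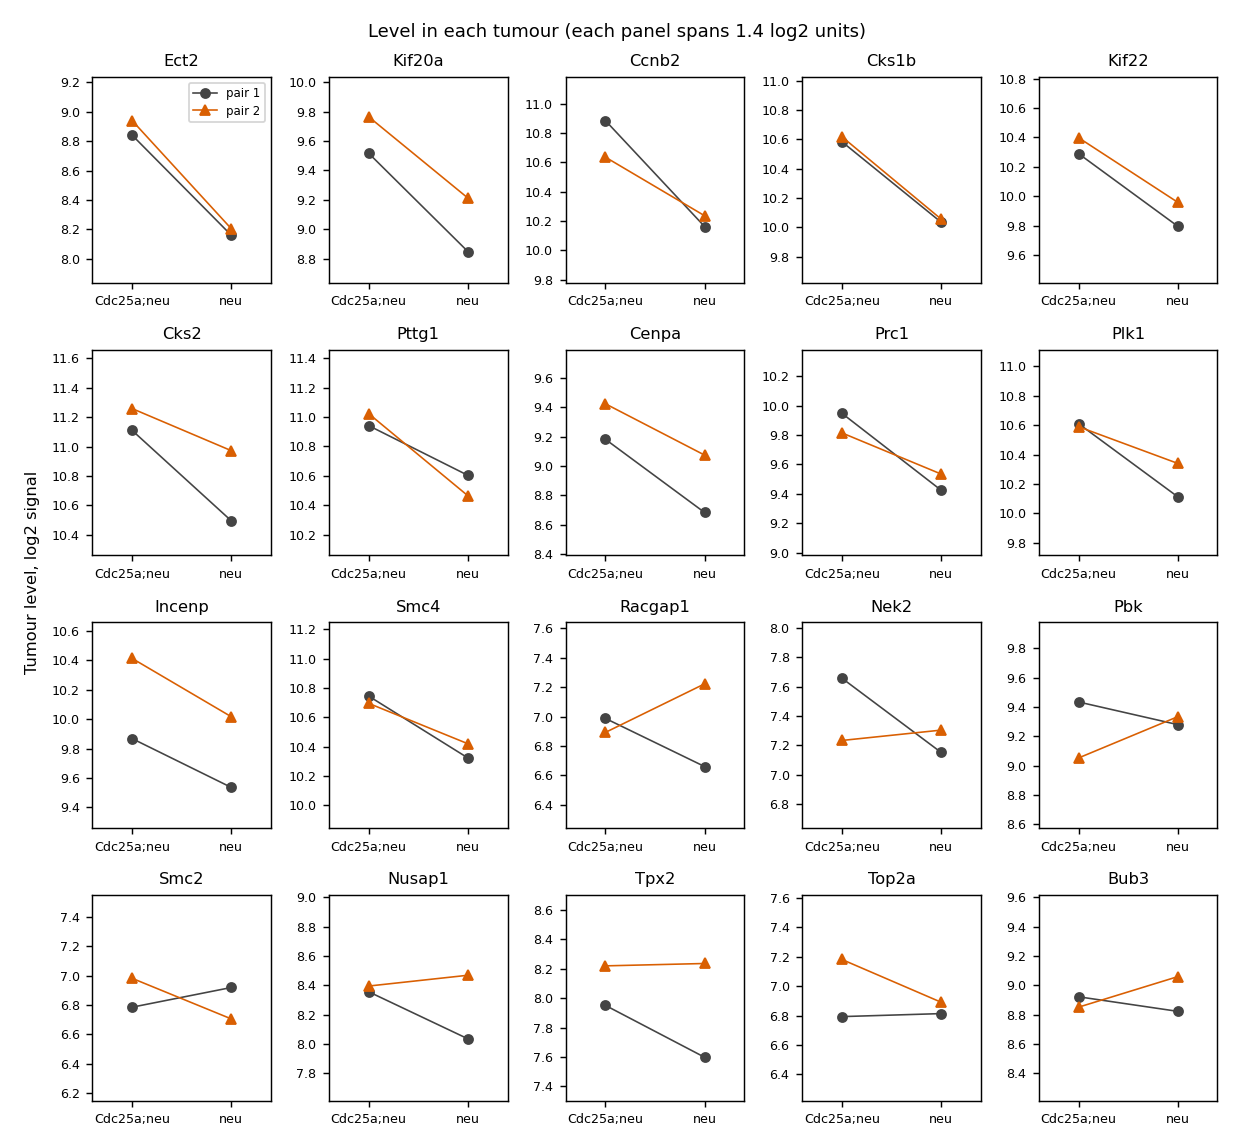
Levels (log2 signal, y axis) of the 12 listed genes that were higher on all 4 arrays with a mean ratio of at least 0.3, and of the 8 whose pairs went opposite ways by 0.3 or more, are shown in each tumour, Cdc25a;neu left and neu right. Lines join the tumours of a pair, circles for pair 1 and triangles for pair 2, and each panel spans 1.4 log2 units. Both lines slope downwards towards neu for the 12 genes from Ect2 to Smc4, and run in opposite directions for the 8 from Racgap1 to Bub3.

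All 9 centromere and chromosome genes were positive in pair 2, and 5 of the 9 were higher in both pairs. Of all 32662 genes tested, 16872 were positive in pair 2 and 31.9% were higher in both pairs. Cenpa, the histone variant that marks centromeres, had levels of 9.18 and 9.42 in Cdc25a;neu tumours, against 8.68 and 9.07 in neu tumours. Its ratios were 0.55 and 0.44 in pair 1 and 0.30 and 0.40 in pair 2, giving a mean of 0.42 ± 0.11 (limma adjusted p = 0.450) and no overlap of the genotypes. Incenp, Birc5 and Cdca8 encode subunits of the chromosomal passenger complex, which corrects faulty attachments and later acts at the midzone. Incenp, its scaffold, had levels of 9.87 and 10.41 in Cdc25a;neu tumours, against 9.53 and 10.02 in neu tumours. The ratios of Incenp were 0.43 and 0.24 in pair 1 and 0.43 and 0.37 in pair 2, giving a mean of 0.36 ± 0.05. The genotypes overlapped for Incenp, because both tumours of pair 2 had higher levels than their counterparts in pair 1. Birc5, survivin, gave 0.42 in pair 1 and 0.13 in pair 2. Cdca8, borealin, a matched gene with a dim probe, gave -0.03 and 0.09.

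The condensin genes Smc4 and Smc2, both matched, encode the partner ATPases that compact chromosomes. Smc4 levels were 10.74 and 10.70 in Cdc25a;neu tumours, against 10.32 and 10.42 in neu tumours, without overlap. Its ratios were 0.52 and 0.32 in pair 1 and 0.49 and 0.06 in pair 2, so the dye orientations of pair 2 lay 0.43 apart. Smc2 levels were 6.78 and 6.98 in Cdc25a;neu tumours, against 6.92 and 6.70 in neu tumours. The Smc2 ratios were -0.32 and 0.05 in pair 1 and 0.35 and 0.20 in pair 2, so its pairs went opposite ways, and its second probe was not well above background on any array. Top2a, the topoisomerase that untangles sister chromatids, had levels of 6.79 and 7.18 in Cdc25a;neu tumours, against 6.81 and 6.89 in neu tumours. Its ratios were -0.11 and 0.07 in pair 1 and 0.24 and 0.35 in pair 2, and a second probe had a mean of -0.02 beside 0.14. Cdc25a;neu tumour 2 was thus the high sample for Top2a on the brighter probe. The kinetochore motor Cenpe gave 0.11 and 0.09, and the kinetochore protein gene Cenpf, matched by synonym, was near 0, with a probe well above background on 2 of 4 arrays for Cdc25a;neu and 1 of 4 for neu.

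Among spindle motors and factors 3 of 6 genes were higher in both pairs, where 31.9% of all genes were. All 6 were positive in pair 1, as were 17052 of all 32662 genes tested. Kif22, a chromosome-arm kinesin and a matched gene, had levels of 10.29 and 10.40 in Cdc25a;neu tumours, against 9.80 and 9.96 in neu tumours. Its ratios were 0.57 and 0.42 in pair 1 and 0.44 and 0.43 in pair 2, giving a mean of 0.47 ± 0.04 (limma adjusted p = 0.438) and no overlap. Kif4, the other chromokinesin, gave 0.38 in pair 1 and 0.05 in pair 2, and its second probe 0.18 and 0.10. Kif11, the kinesin that pushes spindle poles apart and a matched gene, gave 0.13 and 0.02.

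Tpx2 and Nusap1, both spindle microtubule proteins, were positive in pair 1 alone. Tpx2, a matched gene for the activator of Aurora A, had levels of 7.95 and 8.22 in Cdc25a;neu tumours, against 7.60 and 8.24 in neu tumours. Its ratios were 0.36 and 0.35 in pair 1 and -0.18 and 0.15 in pair 2. Nusap1 had levels of 8.36 and 8.40 in Cdc25a;neu tumours, against 8.04 and 8.47 in neu tumours, with ratios of 0.31 and 0.33 in pair 1 and -0.16 and 0.01 in pair 2. For both genes neu tumour 1 was the low sample, and the other 3 tumours lay closer to each other. Kif2c, a kinesin that takes microtubules apart, was near background, with a probe well above it on 1 of 4 arrays for Cdc25a;neu and 2 of 4 for neu, and its ratios were 0.06 and -0.08.

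Cytokinesis held both the largest ratio and the largest disagreement of the pairs. Ect2 had levels of 8.84 and 8.94 in Cdc25a;neu tumours, against 8.16 and 8.20 in neu tumours. Its ratios were 0.66 and 0.71 in pair 1 and 0.86 and 0.61 in pair 2, giving a mean of 0.71 ± 0.04 (limma adjusted p = 0.438). The genotypes were separated by more than either differed within itself. A second, dimmer Ect2 probe gave 0.05 in pair 1 and 0.06 in pair 2, and the mean over both probes was 0.38, so the size of the Ect2 difference depends on the probe. Kif20a, which carries proteins to the central spindle, had levels of 9.52 and 9.76 in Cdc25a;neu tumours, against 8.85 and 9.21 in neu tumours. The Kif20a ratios were 0.60 and 0.74 in pair 1 and 0.55 and 0.56 in pair 2, giving a mean of 0.61 ± 0.08 (limma adjusted p = 0.438) and no overlap. Prc1, the matched gene for the protein that bundles central spindle microtubules, had levels of 9.95 and 9.81 in Cdc25a;neu tumours, against 9.42 and 9.53 in neu tumours. Its ratios were 0.53 and 0.51 in pair 1 and 0.36 and 0.20 in pair 2, again without overlap.

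Racgap1 and Kif23 encode the 2 subunits of centralspindlin, the complex that brings Ect2 to the midzone. Racgap1 levels were 6.99 and 6.89 in Cdc25a;neu tumours, against 6.66 and 7.22 in neu tumours. Its ratios were 0.36 and 0.30 in pair 1 and -0.40 and -0.26 in pair 2, so both dye orientations gave the same sign within a pair and the pairs opposed each other by 0.66. The Cdc25a;neu tumours lay between the neu tumours. A second, dimmer Racgap1 probe gave 0.04 and 0.17. Kif23, a matched gene, gave 0.15 in pair 1 and -0.04 in pair 2 on its brighter probe, and 0.19 and -0.06 on the other. On their brighter probes Ect2 was thus higher in both pairs, while Racgap1 and Kif23 were not. The dimmer Racgap1 probe was higher in both pairs, so this contrast depends on the probe.

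The listed genes leaned towards pair 1. Of the 40, 34 were positive in pair 1 and 27 in pair 2, where 17052 and 16872 of the 32662 genes tested were. The ratio was larger in pair 1 for 28 of the 40. Over all genes tested, 15844 of 32662 had the larger ratio in pair 1. Across the 40 genes, which share arrays and are not independent, the ratios in the pairs correlated at r = 0.53 (Spearman's rho 0.48), and across the 24 members at r = 0.58 (rho 0.54). The same correlation across all genes tested was 0.35. These are descriptions, with no test.

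**Figure D3:**
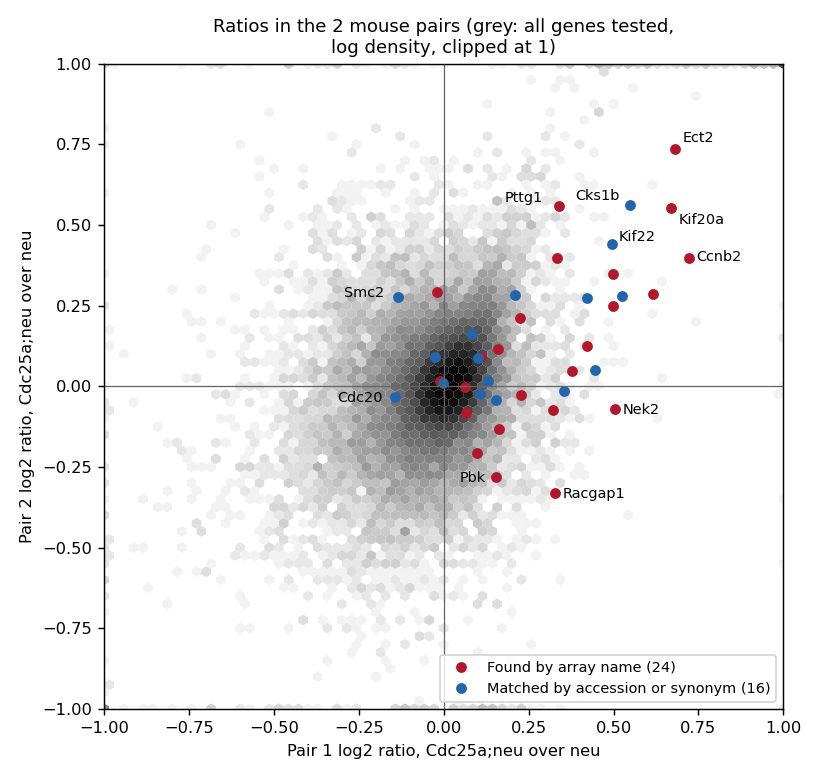
The ratio in pair 2 (y axis) is plotted against the ratio in pair 1 (x axis), both as log2 of Cdc25a;neu over neu, with members in red, matched genes in blue and the log density of all 32662 genes in grey, clipped at 1. Most coloured points lie in the upper right quadrant, Racgap1, Pbk and Nek2 lie in the lower right, and Cdc20 lies in the lower left.

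Most high ratios were found on bright probes. Of the 40 listed genes, 16 had a mean log2 signal of 9 or more, and 13 of these were higher in both pairs, against 30.3% of all genes as bright. These 13 were also higher on all 4 arrays, as were 18.0% of genes as bright. The median ratio of these 16 was 0.39. The 3 bright genes outside the 13 were Aurka, Pbk and Cdc20, and Ect2 was the 1 gene with a mean ratio of at least 0.3 whose probe was dimmer than 9. The 24 dimmer genes had a median of 0.10, and 9 were higher in both pairs and 6 on all 4 arrays. Cdca3 was counted as dim by its array-name probe, at 7.13, while its matched probe had a signal of 10.14. Of all 27186 genes as dim, 8763 were higher in both pairs and 3813 on all 4 arrays. The 9 of 24 were thus near the general share. Across the 40 genes, which share arrays, the ratio and the signal correlated at r = 0.57. Loess sets the same correlation over all genes close to 0, so it gives no comparison value. The offset of 50 added in background correction draws the ratios of dim probes towards 0, so a small ratio on a dim probe does not show a small difference in RNA. Without that offset the median of the 24 members was 0.26, and 14 of them were higher in both pairs.

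**Figure D4:**
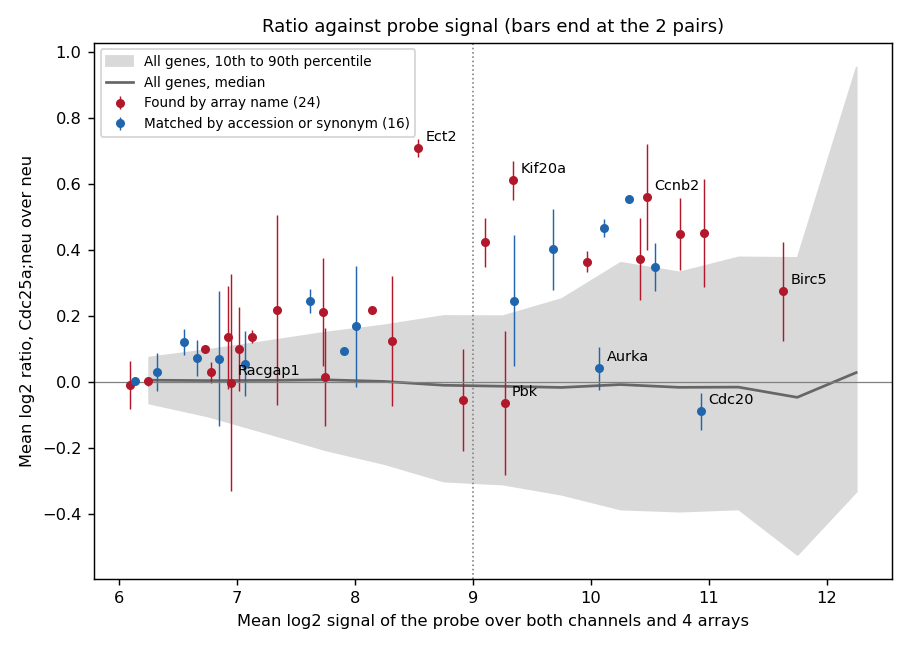
The mean log2 ratio of Cdc25a;neu over neu (y axis) is plotted against the mean log2 signal of the probe (x axis), with bars ending at the 2 pairs, members in red and matched genes in blue. The grey band is the 10th to 90th percentile of all genes in bins of signal and the dotted line marks a signal of 9. Ect2 and Kif20a lie above the band, while Cdc20, Aurka, Pbk and Birc5 lie inside it.

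Where genes had several kept probes, the direction of the mean was mostly shared. Of the 10 listed genes with more than 1 kept probe, Racgap1 and Top2a had means on both sides of 0. Ect2 had the largest range between probes, 0.65, and Cdca3 the next at 0.34. Bub3, Cks2, Kif23, Kif4, Plk4, Top2a, Racgap1 and Ccnb1 had ranges between 0.01 and 0.16. Which transcripts each probe reads was not analysed here. The range of each gene's mean over all processing alternatives was widest for Ect2, at 0.38 to 0.88, and stayed above 0 for every gene with a mean of at least 0.1. These ranges leave out the 5 probes matched by accession to members found by array name. The brighter Cdca3 probe, with a mean of 0.48, is 1 of them.

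**Figure D5:**
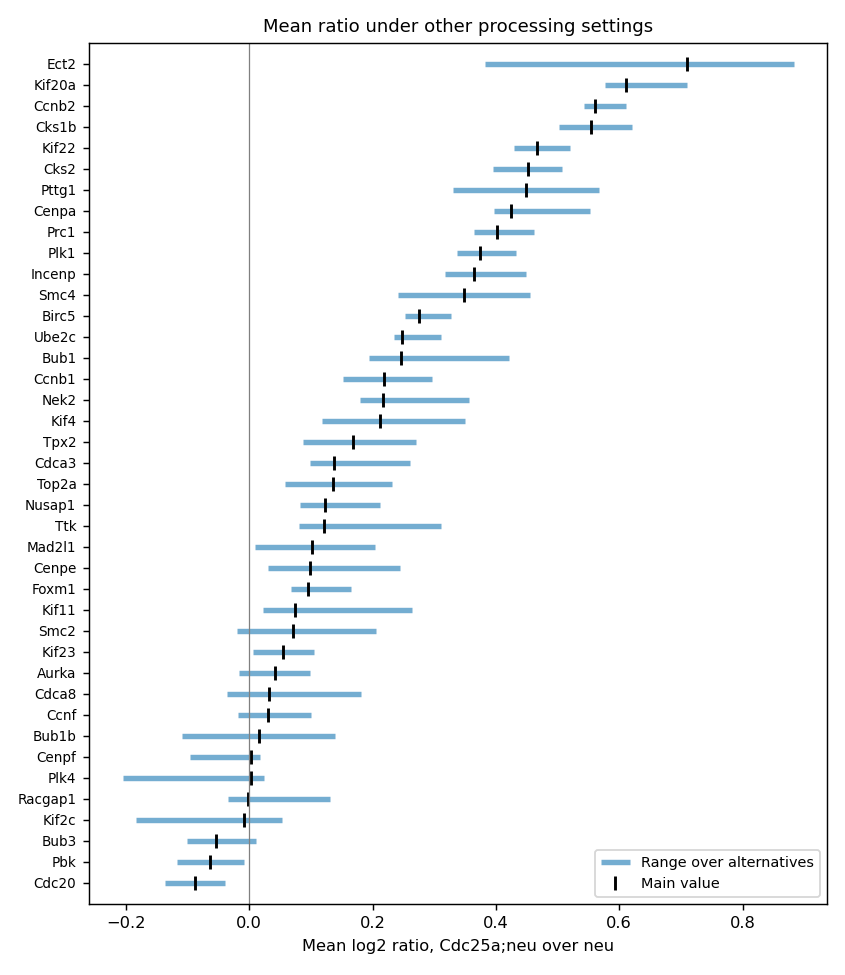
The mean log2 ratio of Cdc25a;neu over neu (x axis) is shown for each of the 40 listed genes (rows), with a black tick at the reported value and a blue bar over its range under the other processing settings. The bar of Ect2 runs from 0.38 to 0.88, the bar of Cdc20 stays below 0, and the bar of Racgap1 crosses 0.

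Position on chromosome 4 was set beside its 4 listed genes, because many genes in a long run there were lower in Cdc25a;neu tumours. Cdc20, Kif2c and Cdca8 lie in this run, between Ror1 and H6pd in the gene order of GRCm38.p6. The median of its 484 measured genes was -0.17 in pair 1 and -0.09 in pair 2. Of these 484 genes, 282 were lower in both pairs, where 28.1% of all genes were. The 20 nearest measured neighbours of Cdc20 had medians of -0.05 and -0.07, beside -0.14 and -0.03 for Cdc20 itself. The neighbours of Cdca8 had medians of -0.22 and -0.29, beside -0.03 and 0.09 for Cdca8. Those of Kif2c had medians of -0.26 and -0.10, beside 0.06 and -0.08 for Kif2c. Smc2 lies outside that run, and its neighbours had medians of 0.05 and -0.06. The part of chromosome position in these values was not tested.

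A further list of 70 mitosis genes, apart from the members, was read in the same way. It too was written with earlier results of these data known, so it gives no independent check. Of its 52 measured genes, 29 were higher and 10 lower in both pairs, where 31.9% and 28.1% of all genes were. The medians were 0.06 in pair 1 and 0.10 in pair 2. At an unadjusted p under 0.05 in limma, 9 of the 52 were higher and 1 lower, where 3.91% and 5.74% of all genes were. Of the 52, 0 passed limma's adjusted test. Gmnn, geminin, which blocks relicensing of replication origins until mitosis ends, had levels of 10.27 and 10.23 in Cdc25a;neu tumours, against 9.65 and 9.61 in neu tumours, and a ratio of 0.62 in both pairs. The spindle protein Tacc3 gave 0.60 and 0.22, and Sgo1, which protects centromeric cohesin, gave 0.44 and 0.34. Cyclin A2 (Ccna2) gave 0.49 and 0.15, the kinetochore protein Nuf2 gave 0.41 and 0.23, and the kinase Melk gave 0.38 and 0.24. These 6 had the largest means in size among genes of 1 sign on all 4 arrays. Mad1l1, the checkpoint partner of Mad2, was the 1 gene of the list that was lower on all 4 arrays, at -0.24 and -0.14, and was named after its values were seen.

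Markers of the cell types in the tissue differed between the tumours as well. Epithelial markers, carried mainly by Krt8 and Krt18, had summed signals of 52197 and 54139 in Cdc25a;neu tumours, against 54078 and 57208 in neu tumours. The median over the 10 epithelial genes was -0.03 in pair 1 and -0.12 in pair 2. Of these genes 2 were higher and 4 lower in both pairs, where 31.9% and 28.1% of all genes were. Adipocyte markers were lower in Cdc25a;neu tumours, with medians of -0.82 and -1.31. Of the 10, 8 were lower in both pairs, where 28.1% of all genes were. Their summed signals were 2803 and 3517 in Cdc25a;neu tumours, against 7892 and 19371 in neu tumours. Without the brightest of them, Fabp4, the sums were 1957 and 1943 in Cdc25a;neu tumours, against 3554 and 6277 in neu tumours. The 9 measured skeletal muscle markers had medians of 0.04 and -1.09. They had summed signals of 1461 and 1575 in Cdc25a;neu tumours, against 1516 and 4840 in neu tumours.

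Macrophage markers were lower in pair 1 and higher in pair 2, with medians of -0.38 and 0.52 over 9 genes. Their summed signals were 8174 and 36314 in Cdc25a;neu tumours, against 10911 and 10707 in neu tumours. The lysozyme gene Lyz2 carried most of these sums. Without it, a choice made after the values were seen, they were 2480 and 3840 in Cdc25a;neu tumours, against 3113 and 2767 in neu tumours. Cdc25a;neu tumour 2 was the highest sample for 7 of the 9 genes, and not for Csf1r and Tyrobp. Fibroblast markers had medians of -0.20 and 0.05 and summed signals of 2350 and 9210 in Cdc25a;neu tumours, against 2903 and 5168 in neu tumours. Without the brightest of them, Col1a1, the sums were 1868 and 4981 in Cdc25a;neu tumours, against 2284 and 3776 in neu tumours. Endothelial markers had medians of 0.04 and 0.12, T and NK cell markers 0.00 and -0.14, and B cell markers -0.02 and -0.004. Tubulin genes had medians of 0.11 and 0.27 over 7 genes. Of these, 6 were higher and 0 lower in both pairs, where 31.9% and 28.1% of all genes were. Tuba1a went opposite ways, at -0.53 and 0.86. The part that these cell types, or the share of tumour epithelium, have in the mitosis gene ratios was not tested.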

How the data were processed

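Members and gene lists were chosen with earlier results of these data known. The scanner output deposited for each array gives, per the file headers, an intensity per spot and channel with its local background. It also gives a log10 ratio of red to green, per the file headers, made from background-subtracted and dye-normalized signals. The submitters' processing notes name Agilent Feature Extraction 7.2 and the headers 7.5.1. The authors' deposited value table holds natural log ratios of red to green, as its slope on the scanner's log10 ratio shows (2.27, 2.28, 2.28 and 2.29 against an expected 2.30). Its column medians were 0.0208, 0.0006, 0.0208 and 0.0079, and it served as an alternative only, its centring and normalization being unstated, like the genome build.

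Intensities were corrected by normexp (offset 50) and normalized by loess within arrays, with control spots at weight 0. Flagged spots were left out and spots of a probe averaged. A probe was kept if, on 2 or more arrays, either channel was well above background, and the brightest stood for its gene, which for the members was chosen among probes found by array name. All 40 listed genes passed this filter. Arrays were turned to Cdc25a;neu over neu by the dyes in the labels and averaged within pairs. limma 3.58.1 (R 4.3.3) tested the mean of 2 pairs against 0 (eBayes, two-sided) and adjusted p by Benjamini-Hochberg over 32662 genes. The procedure was tested on simulated data. Tumour levels are separate-channel values after loess and Aquantile. Slide was not tested, each array having a slide of its own. The number of arrays limits precision. Tumour levels and array ratios are printed for listed genes of 1 sign on all arrays with a mean of at least 0.3 in size, and for those whose pairs opposed by 0.3 or more. Pairing follows the hybridisation of 2 tumours on the same array. Alternatives changed the background correction, normalization, probe filter, choice of probe, unit of replication and arrays included.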

Additional observations from a re-analysis of the deposited data

Results flagged for a closer look

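Among the 40 listed genes, 1 had an array far from the others of its 4. Kif22, the chromosome-arm kinesin, gave 0.57 on the array of pair 1 with Cdc25a;neu in Cy5, against 0.42, 0.44 and 0.43 on the other arrays. The gap to the nearest array was 0.835 of the whole range, above Dixon's critical value for 4 values. Chance gives such a gap in about 1 of 20 groups, so some would arise among 40 genes by chance. The direction was the same on all 4 arrays.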

How the results depend on the processing

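The 23 listed genes with the same direction in both pairs kept the sign of their mean under every alternative run, and of the 17 whose pairs opposed each other 10 changed sign under at least 1. Counting the 4 arrays as units, which takes technical repeats for replicates, called 902 genes, and the pair as a random block 909, with 5 of the 24 members (8 of 40 listed genes) in each. Median centring in place of loess called 933 genes, 3 of them members (5 of 40 listed), with a lowest adjusted p that is implausible for 2 pairs. Every other setting called 0 genes. With separate-channel values per mouse, the replicate block for the pair left the members called at 0 and the median at 0.18, as did the fit without the block. The median of the 24 members was 0.29 in the authors' deposited value table, 0.25 with the scanner's log ratio, 0.26 with its processed signals and without the offset, and 0.24 with median centring. Members higher in both pairs were 22 when the matched genes were added, and members lower in both pairs were 1 then and 1 in the authors' deposited value table. Leaving out an array gave 0 to 1 members lower. The median of the further mitosis list was 0.125 with the scanner's log ratio, 0.123 with its processed signals and loess, 0.101 without the offset, 0.116 with median centring, and 0.0605 to 0.107 without 1 array. Genes whose mean changed sign were Racgap1 (0.11 with the scanner's ratio and with its processed signals, 0.070 without the offset, 0.038 with median centring, 0.0525 over its probes, 0.13 in the authors' deposited table), Cenpf (-0.0092 without the offset, -0.10 with median centring, -0.084 in that table), Plk4 (-0.066 with median centring, -0.21 in that table), Kif2c (0.011 without the offset), Bub3 (0.011) and Cdca8 (-0.036), the last 2 with median centring. Without 1 array the ranges were -0.035 to 0.032 for Racgap1, -0.012 to 0.018 for Cenpf, -0.018 to 0.023 for Plk4, -0.071 to 0.053 for Kif2c, -0.11 to 0.14 for Bub1b, -0.021 to 0.16 for Smc2, -0.018 to 0.078 for Ccnf and -0.016 to 0.10 for Aurka. The causes were not tested. With 2 pairs, a p that misses the threshold does not show that a gene did not differ, and dim probes limit what Kif2c, Cenpf and Plk4 can show.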
